A study of Zea mays with 4 samples.

Results

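The plasma membrane aquaporins of maize were examined through 10 genes, of 1108 genes named on the Affymetrix maize array, measured by 16 of its 17621 probe sets other than controls. They comprise 8 PIP1 probe sets of 4 genes and 8 PIP2 probe sets of 6 genes. Members were chosen by name: a symbol or synonym of the annotated gene had to read PIP1 or PIP2, a hyphen and a number. ZmPIP2-2 and ZmPIP2-3 carry such a name only behind the species prefix and were included. Total RNA came from the inbred maize lines F98902 and Cm489, with 2 arrays for each line. Plants of both lines were grown in soil under long days with natural light, and aerial material was taken during flower development. The organ and the number of plants behind a sample are not given. The titles carry a code of their own for each sample (pl6 and pl18 in F98902, pl9 and pl10 in Cm489), which the labels leave unexplained, and the RNA extraction text given for Cm489 replicate 1 refers to the sample of replicate 2. Whether the arrays of a line came from separate plants, or those of Cm489 from separate RNA, is therefore not known, so p-values cover only the spread between these samples, which may be technical. The RNA amounts in the labels are 102 ug (F98902 replicate 1), 52 ug (F98902 replicate 2) and 100 ug (Cm489 replicate 2).

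Aquaporins are channel proteins that let water, and for some members other small neutral molecules, pass through membranes. In plants the PIP proteins (plasma membrane intrinsic proteins) form tetramers and fall into a PIP1 and a PIP2 group. Maize PIP2 proteins are active water channels when made alone in frog oocytes, whereas most PIP1 proteins show little activity there unless a PIP2 protein is made with them, and PIP1 proteins reach the plasma membrane of maize cells with the help of PIP2 partners. Both groups take part in water uptake by roots, in water movement through vascular tissue and leaves, and in the water supply of expanding cells.

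All levels below are log2 signals, so that a difference of 1 is a 2-fold difference in signal. Probes differ in how strongly they bind, so each probe set is compared with itself across arrays and never with another probe set. Values below 4 lie at or near the lower end of the scale, where a signal gives no level. A probe set was tested where it reached 4 on at least 2 of the 4 arrays, which 12 of the 16 PIP probe sets of 9 genes did (7 PIP1 and 5 PIP2). Differences between lines are F98902 minus Cm489 from limma, fitted on all 11242 tested probe sets with Benjamini-Hochberg adjustment.

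None of the 12 tested PIP probe sets passed an adjusted p of 0.05 between the lines (limma, adjusted p from 0.147 to 0.999), against 1.78% of all tested probe sets. At an unadjusted p under 0.05 there were 3, all with the smaller signal in F98902, against 5.37% of all tested probe sets in that direction. These were PIP1-5, PIP2-4 and PIP2-6, which are also the 3 tested members with both F98902 arrays below both Cm489 arrays, an arrangement held by 20.0% of all tested probe sets. The mean was smaller in F98902 for all 12, a count that includes PIP1-1 at -0.01 (0.05 with arrays set to the same median), whereas 51.2% of all tested probe sets had a smaller mean in F98902. The median difference was -0.89 over the PIP1 and -1.39 over the PIP2 probe sets, beside -0.02 over all tested probe sets. The PIP1 median turned to 0.37 without F98902 replicate 2 and was -2.03 without F98902 replicate 1, and the PIP2 median was -2.56 or -0.51 with Cm489 replicate 1 or 2 left out. Most tested PIP1 probe sets belong to 1 gene, PIP1-3/PIP1-4, and these PIP1 medians are values of that gene. With 1 probe set per gene the PIP1 median over all arrays was -0.90. Without F98902 replicate 2 the other PIP1 genes were at 0.78 (PIP1-1), -0.31 (pip1-2) and -2.82 (PIP1-5). PIP2-6 was tested only because of its signal in Cm489, and the counts and medians cover tested probe sets alone. With 2 arrays a line, the smallest two-sided p of an exact permutation test is 0.333, so no single member could pass one.

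PIP1-1 (LOC542434), a member of the PIP1 group, read 13.73 and 12.16 on F98902 replicates 1 and 2 and 12.53 and 13.38 on Cm489 replicates 1 and 2. The highest and the lowest value both lay in F98902, so the lines overlapped. Its difference was -0.01 (SE 0.74, limma adjusted p = 0.999, 95% interval -2.05 to 2.04), and it turned to 0.78 without F98902 replicate 2, to 0.42 without Cm489 replicate 2 and to 0.05 with arrays set to the same median. The interval spans more than a 2-fold difference either way, so equal levels are not shown.

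For pip1-2 (LOC541779), whose protein is retained inside maize cells when no PIP2 partner is made, the F98902 arrays read 12.51 and 11.29 and the Cm489 arrays 12.19 and 13.45. F98902 replicate 2 was lowest and Cm489 replicate 2 highest, and the remaining 2 arrays lay close together between them. The difference was -0.92 (SE 0.73, limma adjusted p = 0.822) and shrank when either replicate 2 was left out, to -0.31 (F98902) and -0.29 (Cm489). Leaving out a replicate 1 gave -1.53 (F98902) and -1.55 (Cm489).

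The names PIP1-3 and PIP1-4 both belong to 1 annotated gene, LOC541886, measured by 5 probe sets. The brightest of them read 12.39 and 9.88 in F98902 and 11.42 and 12.63 in Cm489. The other 3 that were tested had the same order of arrays, with Cm489 replicate 2 highest, then F98902 replicate 1, then Cm489 replicate 1, and F98902 replicate 2 lowest. Their differences and that of the brightest ran from -0.89 to -0.75 (limma adjusted p from 0.885 to 0.906). All 4 turned above 0 without F98902 replicate 2, with values from 0.25 to 0.44, and were at -2.14 to -1.93 without F98902 replicate 1. These 4 may share target sequence and count as 1 gene rather than as 4 observations. The remaining one stayed between 2.01 and 2.04 on the 4 arrays and gave no level.

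PIP1-5 (LOC542014), a PIP1 gene known to be strongly expressed in maize roots, stood apart from the rest of its group. It read 5.47 and 3.67 in F98902 and 7.12 and 9.45 in Cm489, so the lines did not overlap. The means were 4.57 ± 1.27 in F98902 and 8.29 ± 1.64 in Cm489 (SD, n = 2 each). The difference of -3.72 (SE 1.10, 95% interval -6.77 to -0.67) had an unadjusted limma p of 0.0276 and did not pass after adjustment (limma adjusted p = 0.368). Leaving out Cm489 replicate 1 gave -4.88 and leaving out Cm489 replicate 2 gave -2.56, the extremes over the 4 left-out arrays. F98902 replicate 2 lay below 4 and has no level of its own, so these differences concern probe signal.

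**Figure D1:**
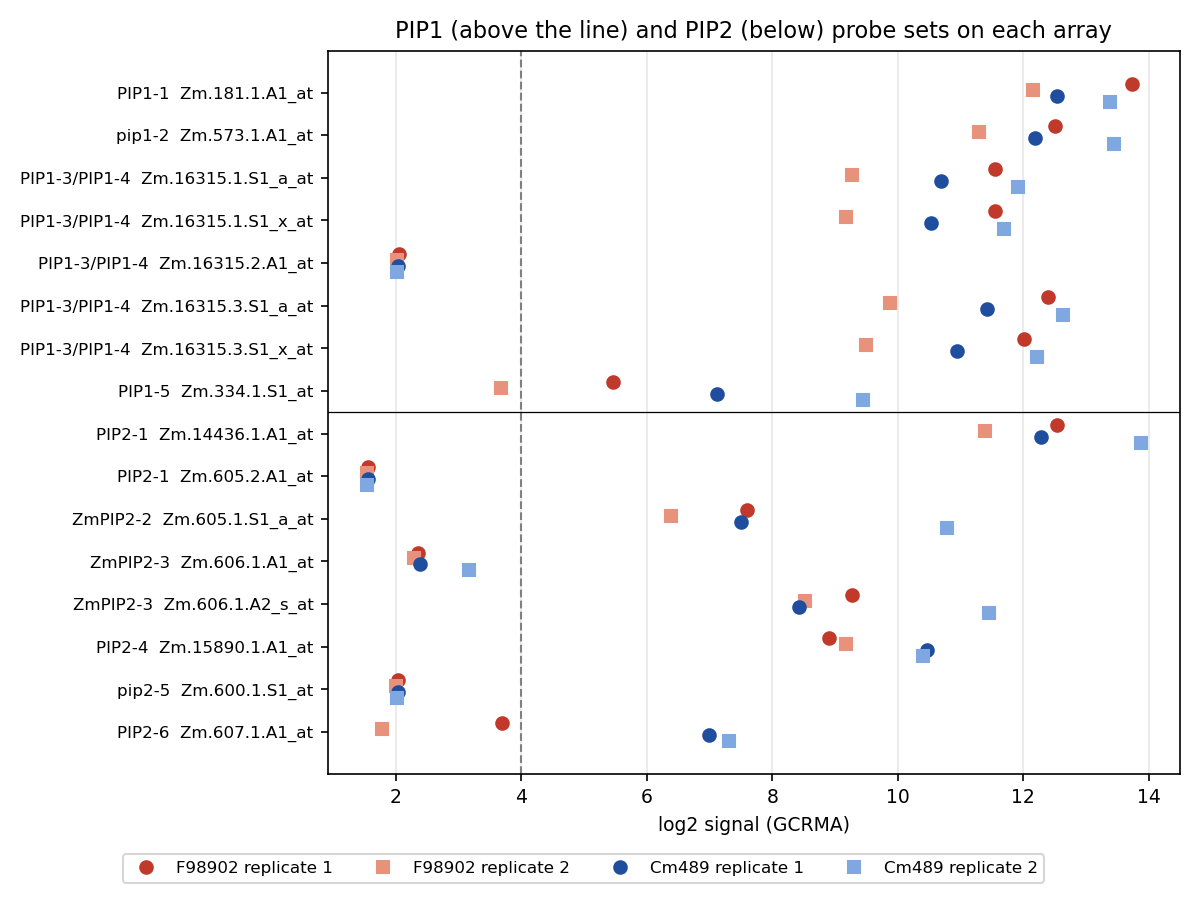
Log2 signal (x axis) of the 16 PIP probe sets (rows, named by gene and probe set) on each of the 4 arrays, F98902 in red and Cm489 in blue, with circles for replicate 1 and squares for replicate 2; the dashed line marks 4. The lines are apart in PIP1-5, PIP2-4 and PIP2-6 among the tested rows, and 4 rows lie below 4 on every array.

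In the PIP2 group, PIP2-1 (LOC541888), an active water channel in oocytes, read 12.54 and 11.40 in F98902 and 12.28 and 13.88 in Cm489. Its order of arrays was that of pip1-2 and of PIP1-3/PIP1-4. The difference was -1.11 (SE 0.79, limma adjusted p = 0.811). It was -0.54 (F98902) and -0.31 (Cm489) with a replicate 2 left out, and -1.68 (F98902) and -1.91 (Cm489) with a replicate 1 left out. A second probe set annotated to PIP2-1 lay between 1.54 and 1.55 on the 4 arrays.

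ZmPIP2-2 (LOC542644) read 7.60 and 6.39 in F98902 and 7.51 and 10.78 in Cm489. Here 1 array set the contrast: Cm489 replicate 2 was far above the other 3. The difference of -2.15 (SE 1.29, limma adjusted p = 0.751) shrank to -0.51 with that array left out, and reached -3.78 without the other Cm489 array.

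ZmPIP2-3 (LOC541889) had the same shape, at 9.28 and 8.52 in F98902 and 8.43 and 11.46 in Cm489. Cm489 replicate 1 was its lowest array. The difference of -1.04 (SE 1.16, limma adjusted p = 0.885) turned to 0.47 without Cm489 replicate 2. It was -2.56 without the other Cm489 array, and -1.42 and -0.67 with F98902 replicate 1 or 2 left out. The suffix of this probe set marks probes that match more than 1 transcript, so its signal cannot be assigned to ZmPIP2-3 alone. Sequence identity between members was not computed, so the other PIP probe sets are not shown to be specific to their genes either. The other probe set of the gene was below 4 on all arrays (2.35 and 2.29 in F98902, 2.38 and 3.17 in Cm489).

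PIP2-4 (LOC541890), a water channel that works together with PIP1 proteins in oocytes, had the tightest replicates of the tested members. It read 8.90 and 9.18 in F98902 and 10.46 and 10.40 in Cm489. Both F98902 arrays lay below both Cm489 arrays, and the means were 9.04 ± 0.19 in F98902 and 10.43 ± 0.05 in Cm489 (SD, n = 2 each). The difference of -1.39 (SE 0.40, 95% interval -2.50 to -0.28) had an unadjusted limma p of 0.0255 and an adjusted p of 0.354. It changed least of the tested members with 1 array left out: the extremes were -1.53 and -1.25, with F98902 replicate 2 or 1 removed.

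PIP2-6 (LOC541891), a further PIP2 gene, had the largest difference among the tested members. It read 3.70 and 1.78 in F98902, both below 4, and 6.99 and 7.31 in Cm489. With the Cm489 mean taken against 4, the mean probe signal was at least 8.86-fold lower in F98902 (measured means 2.74 and 7.15 for F98902 and Cm489, fitted difference -4.41, SE 0.79, limma adjusted p = 0.147). That bound covers the floor of the scale and not the spread between arrays. Removing F98902 replicate 1 or 2 moved the fitted difference to -5.37 or -3.45. With values below 4 raised to 4 it was -3.15 (limma adjusted p = 0.074). For PIP2-6, as for PIP1-5, little transcript in F98902 and a mismatch of its sequence to the probes cannot be told apart. Such a mismatch was not tested for the other members either, PIP2-4 included. PIP2-1 and PIP2-6 are close neighbours in the RefSeq annotation of the B73 line, with 2 annotated genes between them, of which 1 codes for a protein, and the lines were apart in PIP2-6 and overlapped in PIP2-1.

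The last member, pip2-5 (LOC542619), is a root-expressed water channel known from the outer cell layers of maize roots. It read 2.04 and 2.004 in F98902 and 2.03 and 2.01 in Cm489, which gives no level in either line. The tissue label was checked against photosynthesis genes, of which 9 of 10 measured were tested. On the 4 arrays rbcS (LOC542212), for the small subunit of Rubisco, lay between 10.59 and 12.95, whereas Cab-m7, for a light-harvesting protein, ran down to 6.86 and rca1, for Rubisco activase, to 3.99, both on Cm489 replicate 1. Of the C4 genes on the list, pep1 was below 4 on 3 arrays and at 6.01 on Cm489 replicate 2. The others lay above 4 on every array: Ppdk1 from 8.76 to 11.45, mdh6 from 8.47 to 10.96 and me3 from 6.25 to 8.88.

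**Figure D2:**
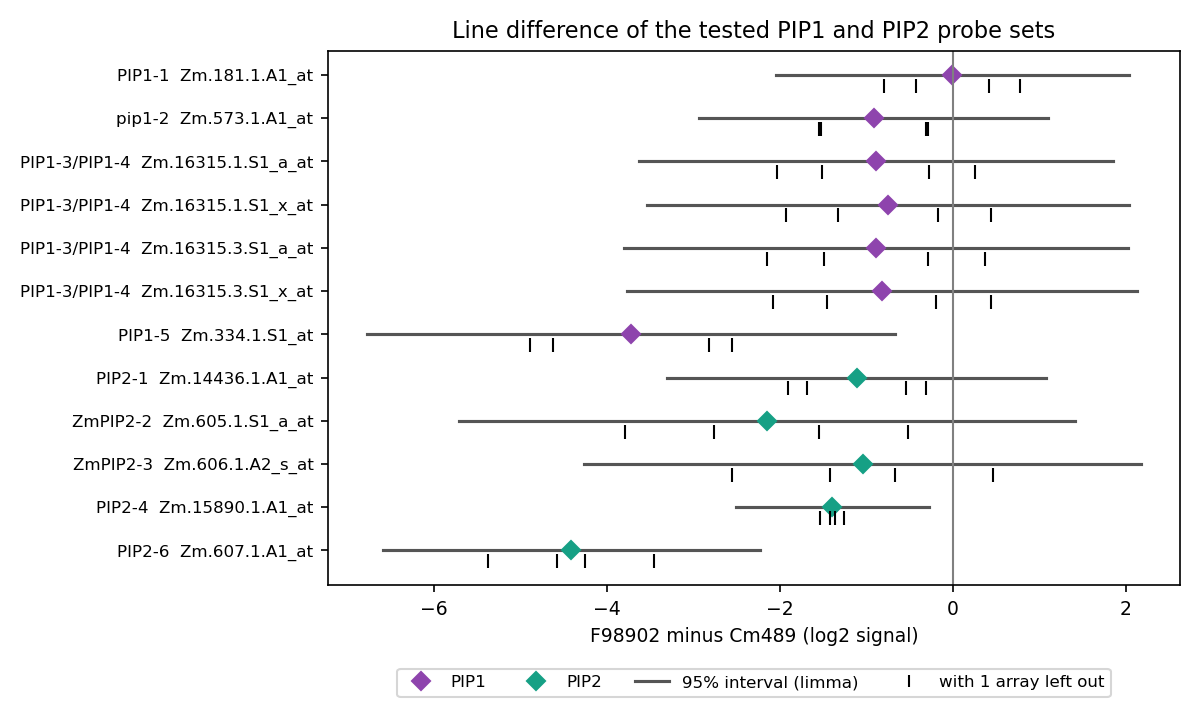
F98902 minus Cm489 log2 difference (x axis) of the 12 tested PIP probe sets (rows), with diamonds for the fitted value (PIP1 purple, PIP2 green), bars for the 95% limma interval and ticks for the value with 1 array left out. The intervals of PIP1-5, PIP2-4 and PIP2-6 lie below 0, and those of the other 9 probe sets span 0.

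The question of PIP1 against PIP2 was put to each array by setting every tested gene against its own mean over the 4 arrays, with the brightest probe set of each gene. On F98902 replicate 1 the groups differed in sign: the PIP1 median was 0.47 above, with 3 of 4 genes above their own mean, and the PIP2 median was -0.47, with 1 of 5 genes above. On F98902 replicate 2 all 9 genes were below their own mean, with medians of -1.38 for PIP1 and -1.13 for PIP2. On Cm489 replicate 1 the medians were -0.16 for PIP1 and -0.24 for PIP2, with 1 of 4 and 2 of 5 genes above. On Cm489 replicate 2 all 9 were above, with medians of 1.07 for PIP1 and 2.03 for PIP2 (1.73 with values below 4 raised to 4). The ranges of the groups overlapped on every array: on F98902 replicate 1 they ran from -0.96 to 0.81 in PIP1 and from -1.24 to 0.02 in PIP2. Genes within a group share their arrays and are not replicates, so these medians have no test. The shares of all tested probe sets above or below their own mean were not computed, so these counts have no background beside them.

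Profiles of members were also compared with each other. With values below 4 raised to 4, the Euclidean distance between profiles over the 4 arrays was smallest, at 0.31, for pip1-2 and PIP2-1, which belong to different groups. Within PIP1 the nearest pair was pip1-2 with PIP1-3/PIP1-4 (0.91), and within PIP2 it was PIP2-1 with ZmPIP2-3 (1.05). The ZmPIP2-3 signal cannot be assigned to that gene alone, so its distances may not be those of a separate gene. The same limit holds for its place in the PIP2 medians and in counts by gene. PIP1-5 was nearest to ZmPIP2-2 (1.57), and its nearest PIP1 gene was pip1-2 (2.75). The median distance was 1.94 over the 6 pairs within PIP1, 2.06 over the 10 pairs within PIP2 and 1.98 over the 20 pairs across groups.

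**Figure D3:**
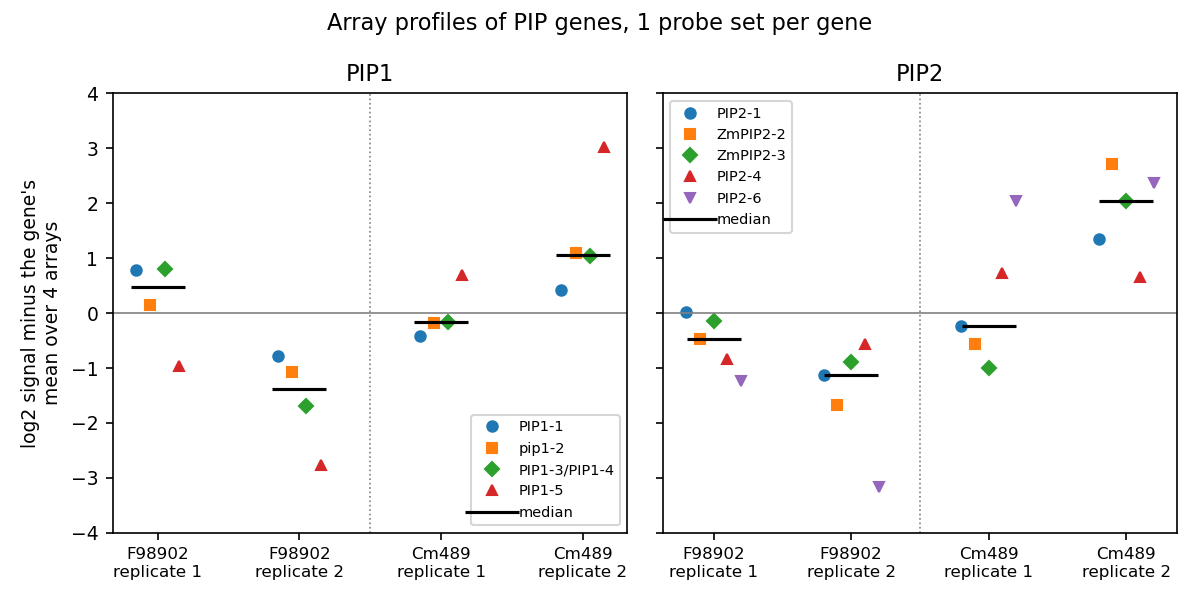
Log2 signal minus the gene's mean over 4 arrays (y axis) for the 4 PIP1 genes (left) and 5 PIP2 genes (right) on each array (x axis), 1 probe set per gene, with black bars for the median. All 9 genes lie below 0 on F98902 replicate 2 and above 0 on Cm489 replicate 2, and the medians on F98902 replicate 1 are 0.47 and -0.47.

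For most members the arrays of a line differed more than the lines did. Values below 4, which have no order, were raised to 4 for these counts, so that PIP2-6 has no gap in F98902. The larger gap within a line exceeded the difference between lines in 9 of 12 tested PIP probe sets, against 75.1% of all tested probe sets, so this share is near the background. In F98902, replicate 2 was at least 1 below replicate 1 for 9 of 12, against 18% of all tested probe sets, with a median of -1.34 beside 0.03 over all tested probe sets. In Cm489, replicate 2 was at least 1 above replicate 1 for 9 of 12, against 15.1%, with a median of 1.25 beside -0.09. With 1 probe set per gene, these 2 counts were each 6 of 9, with medians of -1.21 in F98902 and 1.26 in Cm489. Counted by gene, 5 of 9 were highest on Cm489 replicate 2 and lowest on F98902 replicate 2, against 10.5% of all tested probe sets. PIP2-4 alone among the 12 ran the other way in each line, with replicate 2 minus replicate 1 at 0.28 in F98902 and -0.07 in Cm489. The gap in Cm489 was widest for ZmPIP2-2 (3.27) and ZmPIP2-3 (3.03), and that in F98902 for the 4 PIP1-3/PIP1-4 probe sets (-2.52 to -2.28). These are differences between single arrays and have no test.

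Several marker lists of other tissue moved between the same arrays, and a measure of RNA integrity did so in ways that differed among control transcripts. The 4 secondary wall genes (cesa10, cesa11, CesA12 and bk2, active in xylem and sclerenchyma) were all lower on F98902 replicate 2 than on replicate 1 and all higher on Cm489 replicate 2 than on replicate 1, with medians of -2.23 and 3.49. Of the 9 tested photosynthesis genes, 8 were lower on F98902 replicate 2 and 9 higher on Cm489 replicate 2, with medians of -4.68 and 3.25. Summed log2 signals over these lists on replicates 1 and 2 were 51.0 and 42.3 in F98902 and 40.5 and 53.7 in Cm489 for the secondary wall, and 105.2 and 76.3 in F98902 and 65.9 and 97.3 in Cm489 for photosynthesis. Of the kernel list 4 of 10 measured genes were tested, all lower on F98902 replicate 2 and all higher on Cm489 replicate 2, with medians of -1.32 and 1.64 and sums of 23.7 and 18.9 in F98902 and 19.8 and 26.1 in Cm489. In Cm489 bt2 rose only from 4.70 to 4.83. The untested kernel gene sh2 read 2.56 and 3.01 in F98902 and 5.16 and 3.16 in Cm489, so it reached 4 only on Cm489 replicate 1. The rest of the kernel list lay below 4 on all arrays. Sums were lowest on Cm489 replicate 1 for the secondary wall, photosynthesis and pollen lists (the last with 2 tested genes, 17.8 and 17.3 in F98902, 16.2 and 20.02 in Cm489), and on F98902 replicate 2 for the kernel list, the other aquaporins named below (100.1 and 90.7 in F98902, 98.5 and 117.5 in Cm489) and the meristem list (2 tested genes, 20.0 and 18.4 in F98902, 18.7 and 18.8 in Cm489). The meristem genes moved apart in Cm489, where kn1 read 9.94 and 11.26 and lg3 8.76 and 7.52. The pollen genes moved apart in F98902, where TUA1 read 11.15 and 11.78 and MZm3-3 6.69 and 5.53. Of the tested PIP probe sets 9 of 12 were lowest on F98902 replicate 2 (6 of 9 with 1 probe set per gene), against 21.0% of all tested probe sets. The signal near the 5' end of a control transcript less that near its 3' end, a measure of RNA integrity, differed between replicates 2 and 1 by -0.82 in F98902 and 0.59 in Cm489 for cyclophilin. For GAPDH these values were -1.63 in F98902 and 0.83 in Cm489, for ubiquitin 0.24 and 0.05, and for EF1-alpha -1.10 and -1.02. The EF1-alpha measure also separated the lines, at -1.88 and -2.97 in F98902 and -3.42 and -4.44 in Cm489. The part of tissue makeup, RNA integrity and RNA amount in the PIP values was not tested. In such bulk samples fewer cells of a type and less RNA per cell cannot be told apart.

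**Figure D4:**
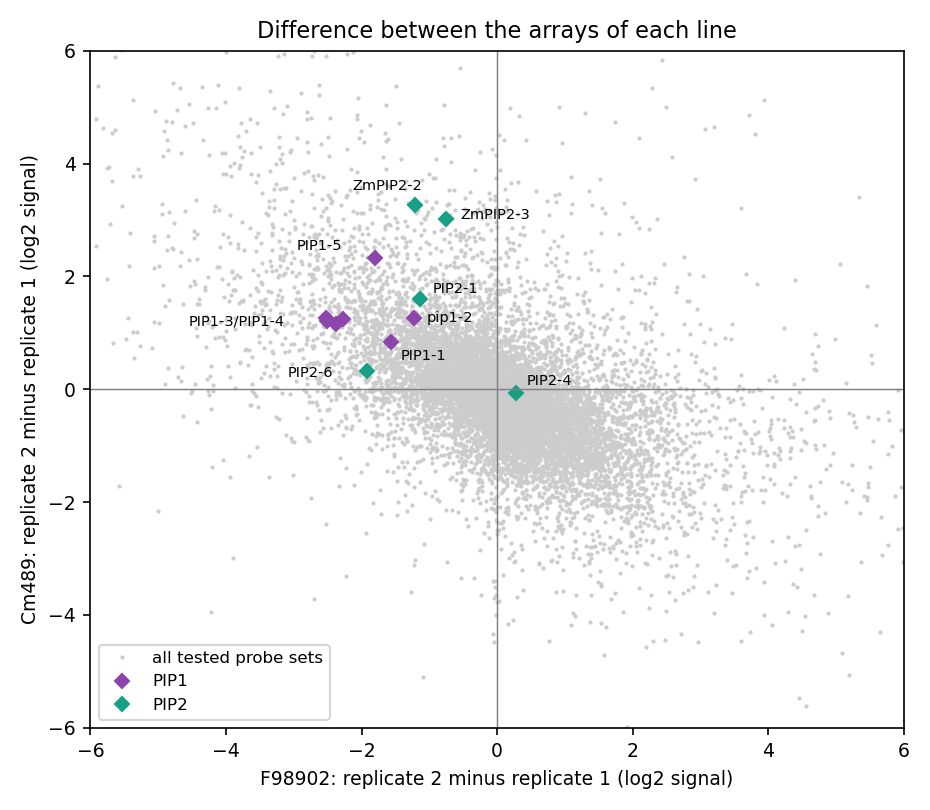
Difference between the arrays of a line, replicate 2 minus replicate 1 in log2 signal, for F98902 (x axis) and Cm489 (y axis), with all tested probe sets in grey and the 12 tested PIP1 (purple) and PIP2 (green) probe sets as diamonds. Values are as deposited, so that the place of PIP2-6 on the x axis rests on signals below 4; PIP2-4 lies near the centre and the other 11 at the upper left, and 114 probe sets lie outside the axes, which end at 6.

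Among the other aquaporin groups (TIP of the vacuole, NIP and SIP), 12 of 18 genes were tested, 9 had a smaller mean in F98902 and 0 passed (limma, with 2 at an unadjusted p under 0.05). Their median difference was -0.40, and their median replicate 2 minus replicate 1 was -0.75 in F98902 and 1.68 in Cm489. Of genes linked to water status, the proton pump gene mha4 (LOC542052), which powers transport across the plasma membrane, differed by -0.43, and mha1, the other proton pump gene measured, was not tested. Of 5 measured dehydration and abscisic acid genes 3 were tested, 2 had a smaller mean in F98902 and none passed (limma; 2 had an unadjusted p under 0.05). Differences ran from -3.46 for vp14, an enzyme gene of abscisic acid synthesis, to 3.45 for asr1. The dehydrin gene rab17 was not tested: it read 2.36 and 3.96 in F98902 and 9.69 and 2.34 in Cm489, so that Cm489 replicate 1 stood apart. The rest of the list did not share this shape. The dehydrin gene dhn2 read 14.24 and 15.17 in F98902 and 15.04 and 14.81 in Cm489. On Cm489 replicates 1 and 2 asr1 read 9.23 and 12.08 and vp14 8.34 and 10.10, so both were lower on replicate 1. The gene vp1 was below 4 on all arrays.

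Of 790 other named genes, those with profiles nearest to the PIP1 median over the 4 arrays were pDCT1 (LOC541643, distance 0.24), the primary wall cellulose synthase genes cesa6 (LOC541804, 0.28) and cesa3 (LOC542489, 0.33), the meristem homeobox gene kn1 (LOC542391, 0.42) and LOC100101528 (0.501). The gene cesa6 read 12.35 and 10.18 in F98902 and 11.70 and 12.70 in Cm489. Nearest to the PIP2 median were the kinesin gene KIN6 (LOC541860, 0.41), the hydroperoxide lyase gene hpl1 (LOC542163, 0.58), the gibberellin synthesis gene d3 (LOC542580, 0.61), the glutathione transferase gene GST38 (LOC541847, 0.61) and Pti1d (LOC100037784, 0.63). KIN6 read 11.20 and 10.80 in F98902 and 11.12 and 13.61 in Cm489, high on 1 array as ZmPIP2-2 and ZmPIP2-3 were. These 2 sets of 5 shared no gene, and with 4 arrays many genes can share a profile. These distances used the deposited values, and LOC100101528, d3 and GST38 lay below 4 on at least 1 array.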

How the data were processed

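Biotin-labelled cRNA from 4 total RNA samples was hybridised to Affymetrix maize arrays, per the labels' protocols. The deposited table holds 1 log2 value per probe set and array, made by the authors with GCRMA per the submitters' processing notes (no version stated there). Values ran from 1.18 to 15.28, from which log base 2 was inferred. Array medians were 6.99 and 7.05 in F98902 and 7.04 and 7.11 in Cm489. Precision is limited by the number of arrays. Controls (113 of 17734 probe sets) were left out.

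Gene names came from GEO's platform annotation, with symbols and synonyms from RefSeq (Zm-B73-REFERENCE-NAM-5.0) through Entrez numbers. Of 1452 probe sets with 1 gene, 1377 matched. PIP names occur there as synonyms. Probe sets reaching 4 on at least 2 arrays were fitted in R 4.3.3 with limma 3.58.1 (lmFit and eBayes with a constant prior) as F98902 minus Cm489, with two-sided p and a threshold of 0.05. SE is moderated, and intervals are at 95%. The fit was also run on simulated data, with errors independent between probe sets and variances drawn from its own prior. Such data cannot show how the fit behaves where probe sets shift together. All members were named, and the 5 nearest other named genes to each group's median were chosen by Euclidean distance of profiles centred on their mean. Members and lists were chosen with earlier results of these data known. Replicate numbers are shared between lines, but no label says that they pair samples, and the within-line differences correlated at -0.558. Gaps between the arrays of a line, array order and member distances used values below 4 raised to 4, a choice made after seeing the data. Alternatives covered the filter, prior, scaling, values below 4, replicate block, left-out arrays, adjustment and names. The secondary wall, photosynthesis, meristem, pollen, kernel, proton pump and dehydration lists were read beside the members.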

Additional observations from a re-analysis of the deposited data

How the results depend on the processing

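The count of PIP probe sets past the threshold was 0 in 13 of the 14 other settings run (limma, with 3 at an unadjusted p under 0.05 in the main setting) and 1 with the crossed replicate block (PIP1-5, limma adjusted p = 0.0444), a pairing added after the data were seen; the other added setting left out the genes named only with the prefix Zm. Over all tested probe sets the count was 200 (105 with the larger and 95 with the smaller signal in F98902, and 1183 before adjustment). Without a dim filter it was 79 (42 and 37), with an intensity-dependent robust prior 8 (4 and 4), after raising values under 4 to 4 it was 115 (53 and 62), and by Bonferroni adjustment 0. Each left-out array gave 0 to 0. A replicate block by number gave 0 and the crossed pairing 284. Blocking moves no difference. The cause of these shifts in the count was not tested. Where no probe set of the array passed, the PIP count could be nothing but 0. Leaving out the genes named only with the prefix Zm could not raise it either.

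The median PIP1 difference lay between -2.03 and 0.37 over the left-out arrays (F98902 replicate 1 or 2 removed) and the median PIP2 difference between -2.56 and -0.51 (Cm489 replicate 1 or 2 removed). Both PIP1 values are those of PIP1-3/PIP1-4 probe sets, which are most of the tested PIP1 probe sets. Of 156 values of the 12 tested PIP probe sets, 147 kept direction and side of the threshold, 1 passed and 8, of 6 probe sets, turned. The settings of filter, prior, replicate block and adjustment leave each fitted difference as it is, so direction could not turn there. Of the 8 that turned, 7 did so with an array left out. As no member passed, keeping side means only that it still did not pass. With each array shifted to the same median PIP1-1 turned to 0.0498. Left-out arrays gave -0.79 to 0.78 for PIP1-1, -2.56 to 0.47 for ZmPIP2-3, and for the PIP1-3/PIP1-4 probe sets -2.03 to 0.25, -1.93 to 0.44, -2.14 to 0.37 and -2.08 to 0.44. Signals below 4 have no order, which limits PIP2-6 and PIP1-5 in F98902.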
